A study of Homo sapiens with 2 samples.

Results

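The genes described here code for proteins that build ribosomes in the nucleolus and for RNA helicases of the DEAD-box (DDX) and DEAH-box (DHX) families. They were chosen by symbol in the array's probe annotation: symbols that begin with NOL, RRP, RRS, DDX, DHX, POLR1, POLR3, GNL or IMP3, or with NOP, NOC or UTP followed by a digit, without antisense genes, together with FBL, BOP1, NCL, WDR74, WDR12, WDR43 and GAR1. The rule found 102 of the 13763 genes named on the array, and the rule itself reads symbols only. Spelling alone brought in 13 of the 102, namely 6 pseudogenes, 3 divergent non-coding transcripts and the protein genes NOL4, NOL4L, GNL1 and GNLY, which are counted as members but assigned no nucleolar role here. GNLY codes for granulysin, a protein of cytotoxic lymphocytes.

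Ribosome assembly starts with the transcription of the long ribosomal RNA precursor by RNA polymerase I, while RNA polymerase III makes the small ribosomal RNA and transfer RNAs. Small nucleolar ribonucleoproteins (snoRNPs) then modify the precursor, and separate sets of assembly factors cut and fold the parts that become the small and the large subunit. RNA helicases use ATP to rearrange RNA in these particles, in the spliceosome, in messenger RNA export and in translation. Growing tumour cells have a high demand for ribosomes, and growth factor signalling through the kinases MEK and ERK is known to stimulate ribosome production.

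Total RNA of S2-013, a human pancreatic cancer cell line, was measured on 2 Affymetrix whole-transcript arrays. One array held cells given a MEK inhibitor and the other held cells without it. In both, HOXB7, a homeobox transcription factor, had been knocked down and then re-expressed from a rescue plasmid, and the series was made to look for factors under the control of HOXB7 and MEK signalling. The sources used here do not give the name and dose of the inhibitor, the exposure time, or whether the knockdown cells were 1 clone. With 1 array per group no value below has a replicate error, no test was run, and every difference compares these cultures only.

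Values are on a log2 scale, so a difference of -1 means a level that is 2-fold lower with the inhibitor. The arrays had nearly equal medians, 3.46 with the inhibitor and 3.49 without it. The 7 ERK readouts EGR1, SPRY4, DUSP4, ETV4, ETV5, DUSP6 and SPRY2 were all at least 2-fold lower with the inhibitor. The same held for 1.05% of all genes above the floor explained below. HOXB7, the re-expressed gene, was read beside them and differed by 0.0090. All 7 epithelial markers named on the array reached the floor in at least 1 array (KRT7 only with the inhibitor), with differences from -0.29 (KRT18) to 0.95 (CLDN4, larger than that of any member). The floor was also reached by 0 of 2 fibroblast, 1 of 4 endothelial (CLDN5) and 1 of 3 leukocyte markers (CD68, which was 0.43 lower with the inhibitor). Fewer cells of a type and less RNA per cell cannot be told apart in such bulk RNA.

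A floor was set at 4.78, the median gene's level averaged over the arrays, and genes that reached it in at least 1 array were kept. This left 87 of the 102 members and 7164 genes in all. Of the 87, 83 reached the floor in both arrays, NOC2L and DDX11L9 only with the inhibitor, and POLR1H and RRP7BP only without it. The 15 members below the floor had differences between -0.45 (DDX4, a germline helicase) and 0.33 (DDX59), none past 1.5-fold. Nothing but probe error could be measured inside these arrays: among 175 genes read by more than 1 distinct probe set, the differences of the leading pair disagreed by a median of 0.13, and the 95th percentile of the disagreement was 0.56.

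The members as a whole were slightly lower with the inhibitor. Of the 87 above the floor, 67 had a difference below 0, against 46.1% of all genes above the floor, and 76 of all 102 members did, against 49.1% of all named genes. The median difference was -0.21 over the 87 members and -0.19 over all 102, against 0.03 over the 7164 genes. At least 1.5-fold lower were 7 members, or 8.05% of the 87, against 3.6% of all genes above the floor. Of all 102 members these 7 are 6.86%, against 2.59% of all named genes. At least 1.5-fold higher were 2 members, or 2.3% of the 87 against 4.62%, and 1.96% of the 102 against 3.2%. Both of these had passed the floor only through the array with the inhibitor. No member reached a 2-fold difference, against 1.05% of all genes for lower and 0.628% for higher values.

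**Figure D1:**
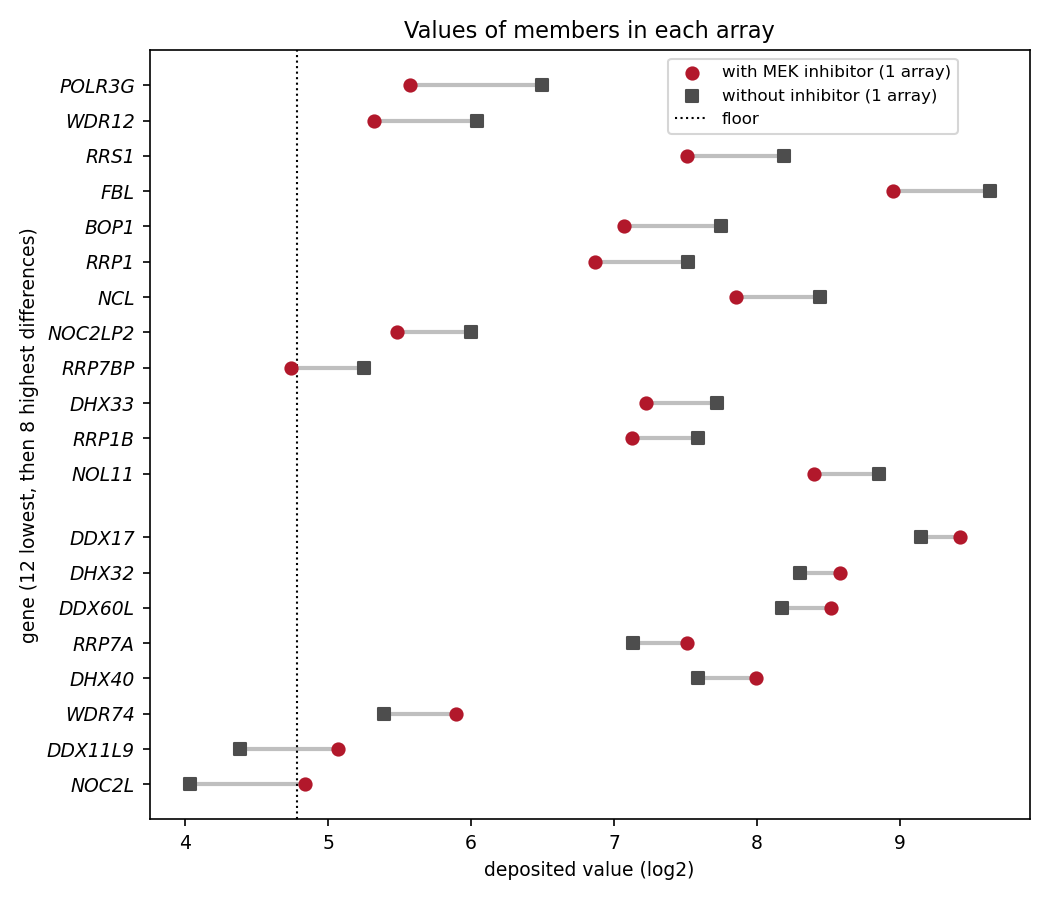
Deposited log2 values (x axis) of the 12 members with the lowest and the 8 with the highest differences above the floor (y axis), each gene with a red circle for the array with the MEK inhibitor and a grey square for the array without it. The gap is widest for POLR3G (5.57 with and 6.50 without the inhibitor) at the low end and for NOC2L (4.84 with and 4.03 without) at the high end, where the value without the inhibitor lies left of the dotted floor of 4.78.

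POLR3G, a subunit of RNA polymerase III found in one of its alternative forms, had the lowest difference of the members. Its values were 5.57 with the inhibitor and 6.50 without it (-0.92, 1.90-fold lower), and 1.37% of the genes above the floor lay lower still. POLR3GL, the paralog that takes its place in the other form of the enzyme, lay below the floor at 4.52 with and 4.42 without the inhibitor. The remaining RNA polymerase III subunits did not share the size of this difference: POLR3E had -0.38, POLR3B, the second-largest subunit, -0.012 and POLR3C 0.26. Only 5 of 10 listed subunits were named on the array, so the enzyme as a whole was not read. Of RNA polymerase I, POLR1F read 5.58 with and 5.88 without the inhibitor (-0.30) and POLR1H 4.77 and 4.84 (-0.07), and 6 of 8 listed subunits were not analysed here.

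The snoRNP members were lower in 4 of 5 cases, against 46.1% of all genes, with a median difference of -0.30. FBL, the methyltransferase fibrillarin of the C/D snoRNPs, read 8.95 with the inhibitor and 9.63 without it (-0.68, 1.60-fold lower). NOP58, a core protein of the same particles, read 9.71 with and 10.01 without the inhibitor (-0.30), and NOLC1, a chaperone of snoRNPs, 9.31 and 9.65 (-0.35). Of the H/ACA particles, which convert uridine to pseudouridine, the core proteins NOP10 and GAR1 differed by -0.21 and 0.05. NAF1, an assembly factor of these particles outside the symbol rule, differed by -0.58. NCL, the abundant nucleolar protein nucleolin, read 7.85 with and 8.44 without the inhibitor (-0.59), which lies just past the 1.5-fold threshold of 0.58.

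Factors of the large subunit held 4 of the 7 members that were at least 1.5-fold lower. These 4 are 25% of the 16 above the floor, against 3.6% of all genes. At least 1.5-fold higher was 1, or 6.25%, against 4.62%. Of the 16, 14 had differences below 0 (87.5%, against 46.1% of all genes), and the median was -0.39. WDR12 and BOP1 belong to the same PeBoW complex, which is needed to mature the large subunit RNA. WDR12 read 5.32 with the inhibitor and 6.04 without it (-0.72), and BOP1 7.07 and 7.75 (-0.68). A second probe set of BOP1 read 5.85 with and 6.13 without the inhibitor, a difference of -0.28, so the call for BOP1 rests on 1 of its 2 probe sets.

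RRS1, which helps bring the small ribosomal RNA of the large subunit into the particle, read 7.51 with the inhibitor and 8.19 without it (-0.68). RRP1, a nucleolar processing factor, read 6.87 with and 7.52 without the inhibitor (-0.65). Its paralog RRP1B differed by -0.47. The nucleolar GTPases GNL3L and GNL2 differed by -0.45 and -0.40, NOC3L by -0.40, NOL12 by -0.38, the RNA methyltransferase gene NOP2 by -0.31 and the RNA kinase gene NOL9 by -0.31. The differences of RRP1B, GNL3L, GNL2, NOC3L, NOL12, NOP2 and NOL9 are each smaller than the 0.56 that bounds 95% of probe set disagreements.

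The exceptions among the large subunit factors were WDR74 and NOC2L. WDR74, which acts in remodelling of the pre-ribosome, read 5.90 with the inhibitor and 5.39 without it (0.50). NOC2L, a nucleolar protein also known as a histone acetyltransferase inhibitor, read 4.84 with and 4.03 without the inhibitor (0.81). The NOC2L value without the inhibitor is below the floor, and whether it exceeds background is unknown.

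Factors of the small subunit had a median difference of -0.15 over 11 members of that role, 9 of them below 0, against 46.1% of all genes. None passed 1.5-fold, against 3.6% of all genes for lower and 4.62% for higher values. The distance from the large subunit median was not tested. NOL11, a component of the small subunit processome that also takes part in RNA polymerase I transcription, was lowest at 8.40 with the inhibitor and 8.86 without it (-0.46). WDR43 differed by -0.36, NOP14 by -0.34, UTP18 by -0.30 and NOL6 by -0.27. UTP25, a further processome factor that was in no role list and is named here after its value was seen, read 5.82 with and 6.26 without the inhibitor (-0.44). RRP7A stood opposite, at 7.51 with and 7.13 without the inhibitor (0.38), and RRP36 read 0.06.

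**Figure D2:**
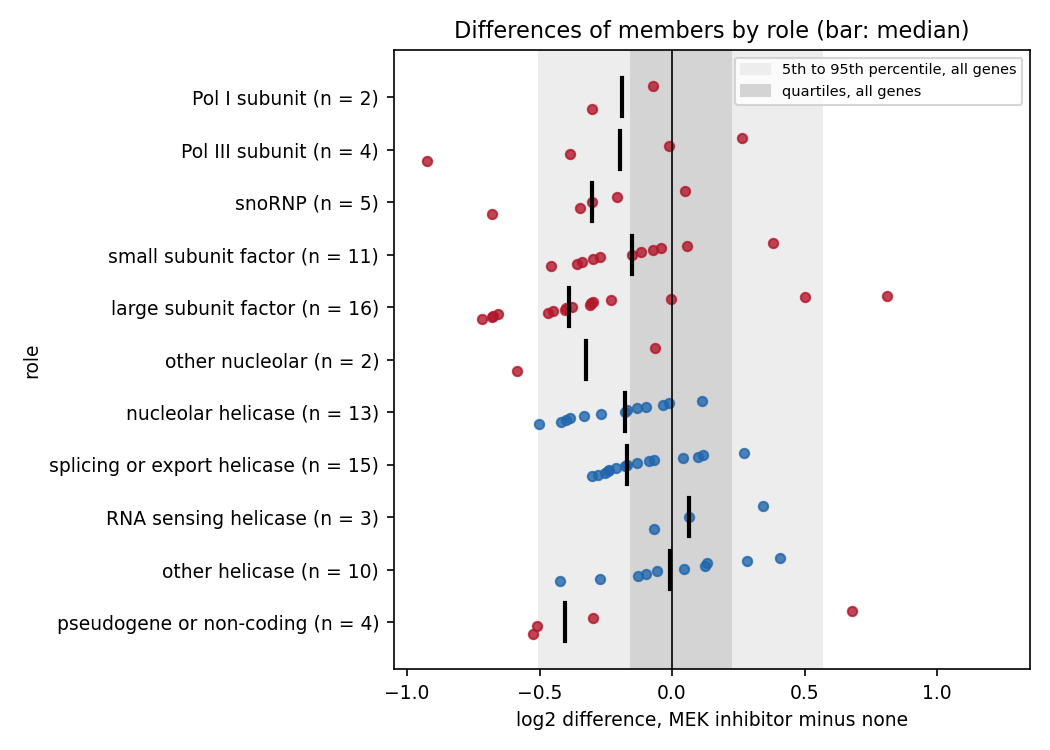
Log2 differences, MEK inhibitor minus none (x axis), of members above the floor by role (y axis), with 1 point per gene, helicase roles in blue and the others in red, and a black bar at each role's median; GNL1 and UTP25, which have no role here, are not drawn. Grey bands mark the quartiles and the 5th to 95th percentiles of all 7164 genes (-0.50 to 0.56), and the median bar lies farthest left for pseudogene or non-coding members (-0.40, n = 4) and for large subunit factors (-0.39, n = 16).

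The RNA helicases had a median closer to 0, a gap that was not tested. Leaving out the DDX11L pseudogenes and non-coding transcripts, 41 helicase genes were above the floor. Of these, 29 had differences below 0 (70.7%, against 46.1% of all genes), and the median was -0.13. None passed 1.5-fold in either direction, against 3.6% of all genes for lower and 4.62% for higher values. Such shares would give few calls among 41 genes. The 41 remaining members with a function in assembly or transcription had 35 below 0 (85.4%) and a median of -0.30. Split by symbol alone, helicases named DDX (median -0.13, n = 25) and DHX (median -0.11, n = 16) had similar medians. Their protein sequences were not searched for the DEAD or DEAH motif.

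Helicases of the nucleolus were below 0 in 12 of 13 cases, against 46.1% of all genes, with a median of -0.18. All 13 differences were smaller than the 0.56 that bounds 95% of probe set disagreements. DHX33, which acts in ribosomal RNA synthesis, was lowest at 7.22 with the inhibitor and 7.72 without it (-0.50). DDX10 differed by -0.42, DDX21, which binds ribosomal RNA and snoRNAs, by -0.40, DDX31 by -0.38 and DDX56 by -0.33. DDX52 (-0.012), DHX37 (-0.03) and DDX47 (-0.10) had differences near 0, and DDX50 read 0.11.

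Helicases of splicing and export had a median of -0.17, with 11 of 15 below 0, against 46.1% of all genes. Their differences lay between -0.30 (DDX19B, an export factor at nuclear pores) and 0.27 (DDX17). Helicases of the spliceosome were spread over this range, with DDX46 at -0.28, DDX23 at -0.25, DHX15, which also serves in ribosome assembly, at -0.24, DHX38 at -0.07, DHX8 at 0.04 and DDX42 at 0.12. DHX16 was read by 8 probe sets, whose differences lay between -0.22 and -0.17. Several of them had identical values in both arrays, so they are not 8 separate readings. DDX5, a paralog of DDX17, differed by -0.09.

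The helicases with other roles did not lean to either side. Their median was -0.0068 over 10 genes, 5 of them below 0, against 46.1% of all genes. DHX34, a factor of nonsense-mediated decay, read 5.63 with the inhibitor and 6.06 without it (-0.42), and DHX36, which unwinds G-quadruplexes, differed by -0.27. At the other end DHX40 read 7.995 with and 7.59 without the inhibitor (0.41) and DHX32 8.58 and 8.30 (0.28). DDX6, a decay and repression factor of P-bodies, differed by 0.13 and DDX1 by 0.12. Of the helicases of antiviral RNA sensing, DDX60 differed by -0.07, DHX58 by 0.06 and DDX60L by 0.34.

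Genes of the same pathway outside the symbol rule were read from lists. Of 80 other ribosome biogenesis factors listed, only 54 were named on the array, so the list was read in part. Above the floor were 53, and 50 of these had differences below 0 (94.3%, against 46.1% of all genes), with a median of -0.29. At least 1.5-fold lower were 5 of the 53, or 9.43%, against 3.6% of all genes, and 1 was higher, or 1.89%, against 4.62%. PNO1, a small subunit factor, read 7.05 with the inhibitor and 7.78 without it (-0.74). RRN3, the initiation factor that brings RNA polymerase I to its promoter, read 7.54 with and 8.24 without the inhibitor (-0.70), and NAT10, an RNA acetyltransferase, 8.52 and 9.19 (-0.67). SNU13, a core protein of C/D snoRNPs, differed by -0.63 and WDR3 by -0.62. The gene that was higher, the cytoplasmic GTPase gene EFL1, read 4.97 with and 4.33 without the inhibitor (0.64) and reached the floor only with it.

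The exosome, which trims the precursors of ribosomal RNA, had 10 of 12 genes below 0, against 46.1% of all genes, and a median of -0.24. Its lowest were EXOSC4 (-0.67) and EXOSC1 (-0.57), and EXOSC9 read 0.20. RNA polymerase II subunits gave only 3 genes above the floor, POLR2D (-0.11), POLR2H (0.0024) and POLR2G (0.11). MYC, a transcription factor known to activate ribosome biogenesis genes, read 7.36 with and 7.72 without the inhibitor (-0.35), and its partner MAX 6.58 and 6.79 (-0.21). Of 9 genes of the MYC network above the floor, 7 had differences below 0, against 46.1% of all genes, among them the MYC antagonists MXD3 (-0.49) and MXD1 (-0.45).

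**Figure D3:**
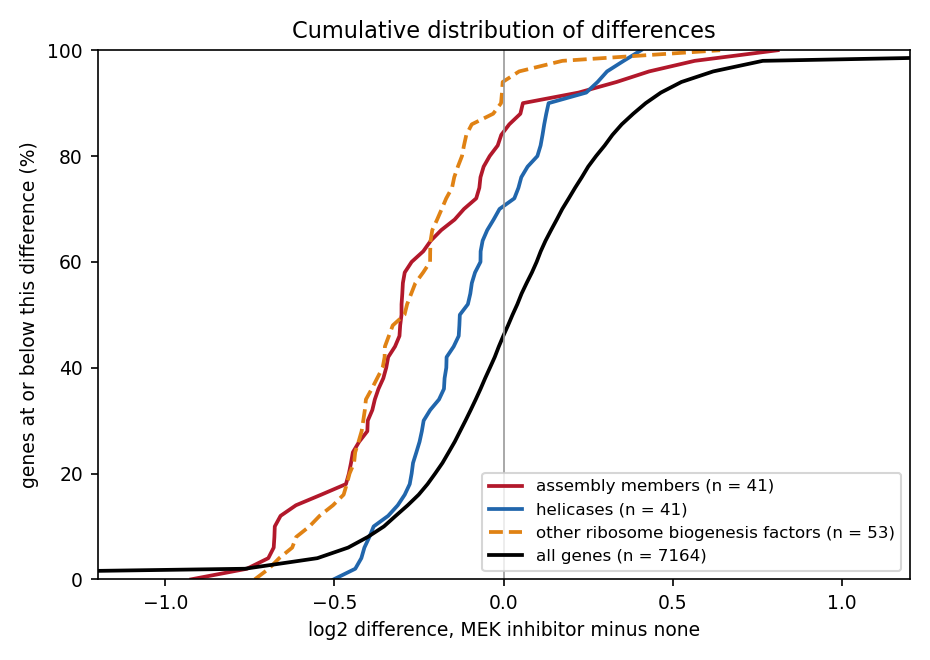
Share of genes at or below a given log2 difference, MEK inhibitor minus none, drawn from percentiles in steps of 2, for 41 assembly members, 41 helicases, 53 other ribosome biogenesis factors and all 7164 genes above the floor. Medians were -0.30, -0.13, -0.29 and 0.03 in that order, and the curve of the helicases runs between those of the assembly genes and of all genes over most of its length.

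The promoters were searched for CACGTG, the canonical E-box, which MYC with MAX and several other helix-loop-helix factors can bind. It is its own reverse complement, so both strands are covered. RefSeq windows (GRCh38.p14) of 250 bases before to 50 bases after the start were found for 71 of the 87 members. The E-box was present in 22 of the 71 windows (31.0%), against 10.5% of 5847 windows of named genes above the floor and 7.43% of all 27305 windows. Among assembly members it was present in 13 of 33 (39.4%), among helicases in 8 of 37 (21.6%) and among the other ribosome biogenesis factors in 15 of 47 (31.9%). The median GC content was 62.3% in members and 65.7% in the genes above the floor.

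The E-boxes of the assembly members mostly lay near the transcription start. In 12 of the 13 assembly genes that had one, the first base of at least 1 E-box lay within 50 bases of the start. This was the case in 255 of 614 E-box windows (41.5%) of all genes above the floor and in 3 of 8 of helicases. UTP18 and NOP10 also held an E-box farther from the start, at -89 and -170. All 12 genes with an E-box near the start had differences below 0, with a median of -0.35. The remaining assembly gene with an E-box, POLR3C, has it at -196, outside the 50-base limit, and differed by 0.26. This limit was not part of the planned motif search. With an E-box anywhere in the window, 12 of the 13 assembly genes had differences below 0, with a median of -0.34. Of all assembly members above the floor 85.4% were below 0, and a link between E-box and difference was not tested. Of the 20 assembly members without an E-box, 15 had differences below 0, with a median of -0.17. Of the 255 genes above the floor with an E-box near the start, 137 had differences below 0, with a median of -0.028, against 0.034 for those without an E-box. No window was matched for POLR3G, RRS1, BOP1, RRP1B, NOLC1, NOP58, RRP12 and NOL10, which include 3 of the 7 members at least 1.5-fold lower. Helicases did not share this order, with medians of -0.09 for the 3 with an E-box near the start and -0.13 for the 29 without one. The 8 helicases with an E-box anywhere in the window had a median of -0.11. Nor did the other ribosome biogenesis factors: the 11 with an E-box near the start had a median of -0.22, and those without any E-box -0.27.

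The following windows of up to 30 bases are shown because they hold the E-box, in capitals, near the start in the 10 members with the lowest differences among those with such a site. They are from RefSeq, GRCh38.p14, 5′ to 3′ on the strand of the gene.
FBL: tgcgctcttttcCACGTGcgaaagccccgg
UTP25: agtcagcgagccCACGTGcttgtgttgact
GNL2: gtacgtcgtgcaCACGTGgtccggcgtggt
NOC3L: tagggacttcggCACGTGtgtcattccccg
POLR3E: cccgctccccccCACGTGtccgccggagtt
DDX31: cctcgcgcgtccCACGTGgggtcccgggcc
WDR43: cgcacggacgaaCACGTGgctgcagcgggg
NOP14: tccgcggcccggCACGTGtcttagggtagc
NOP2: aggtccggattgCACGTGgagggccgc
UTP18: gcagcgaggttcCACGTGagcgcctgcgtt

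Counted from the start as base 0, the first base of the E-box lay at 6 in FBL (window chr19:39846356-39846385, minus strand), at 14 in UTP25 (chr1:209827974-209828003, plus strand) and at 3 in GNL2 (chr1:37595917-37595946, minus strand). It lay at 19 in NOC3L (chr10:94362903-94362932, minus strand), at -1 in POLR3E (chr16:22297396-22297425, plus strand) and at -22 in DDX31 (chr9:132669988-132670017, minus strand). In WDR43 it lay at 3 (chr2:28894658-28894687, plus strand), in NOP14 at 15 (chr4:2963374-2963403, minus strand), in NOP2 at 35 (chr12:6568242-6568268, minus strand) and in UTP18 at 4 (chr17:51260538-51260567, plus strand). The other E-box of UTP18, at -89, is not in the window shown. The bases around the capitals differ between these genes. Their differences, by which the 10 were picked, ran from -0.68 in FBL to -0.30 in UTP18.

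The whole window of FBL, at chr19:39846330-39846629 on the minus strand, is shown because FBL had the lowest difference among members with an E-box. Its GC content was 67.7%.
FBL promoter: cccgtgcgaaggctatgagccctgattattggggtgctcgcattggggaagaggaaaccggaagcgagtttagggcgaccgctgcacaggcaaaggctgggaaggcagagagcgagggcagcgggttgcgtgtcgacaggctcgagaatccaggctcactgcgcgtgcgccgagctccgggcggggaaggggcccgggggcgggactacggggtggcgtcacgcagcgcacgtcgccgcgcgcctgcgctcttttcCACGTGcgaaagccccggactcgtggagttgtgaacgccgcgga

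**Figure D4:**
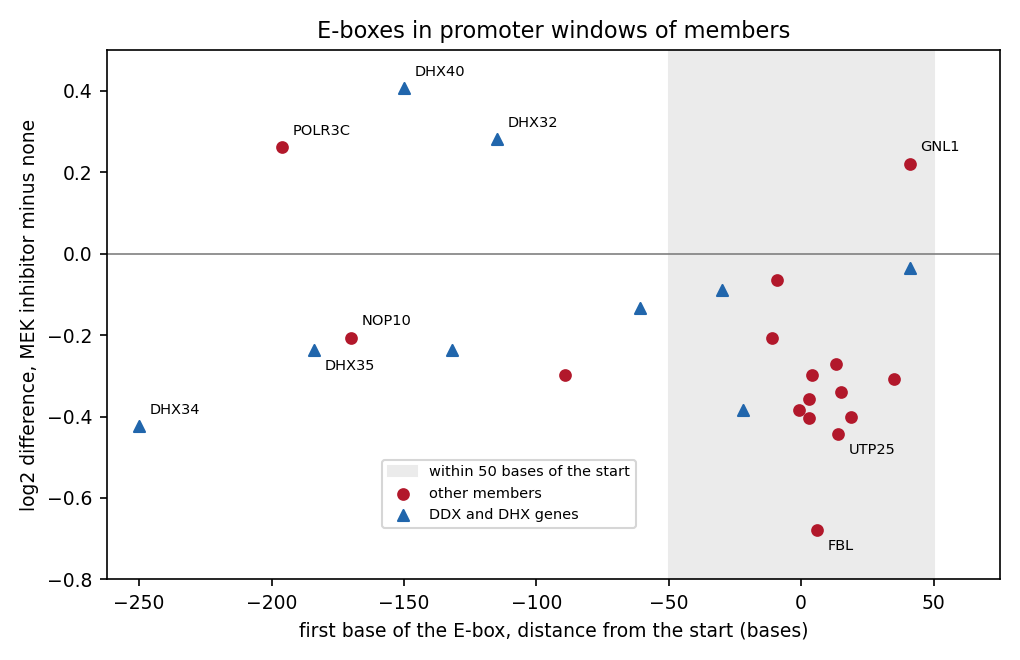
Distance of the first base of each E-box from the transcription start (x axis, bases) and log2 difference of the gene, MEK inhibitor minus none (y axis), for the 22 members above the floor with an E-box, with 1 point per E-box, blue triangles for DDX and DHX genes and red circles for the others. The grey band covers 50 bases on either side of the start, where 15 of 16 genes had differences below 0 and GNL1 (0.22) lay above it. This limit was not planned, and over the whole window 18 of the 22 genes had differences below 0.

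The second motif searched was that of NRF1, a regulator of many growth and mitochondrial genes, written as GCGC, any base and TGCGC, on both strands. It was present in 6 of 71 windows of members above the floor (8.45%), against 12.3% of the genes above the floor. All 6 had differences below 0, with a median of -0.42. Of the 65 members without it, 47 had differences below 0, with a median of -0.13. Over all genes above the floor the medians were 0.05 with and 0.03 without the motif. Among these genes, 301 of 719 with the motif had differences below 0, and 2352 of 5128 without it. FBL and RRP1 were among the 6, and WDR12 and NCL held neither motif. A motif in a window does not show that a factor binds there.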

How the data were processed

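The authors deposited log2 values, 1 for each probe set in each array; the scale is inferred from the values. Affymetrix Expression Console 1.3 is named in the submitters' processing notes, and how it corrected background, summarised and normalized is not given in the sources used here. Nearly equal array quantiles mean that a difference in total RNA output may have been removed, and summaries compress folds. Detection above background is unknown, and 1 array per group limits the precision.

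Of 53617 probe sets, 16098 have 1 gene symbol; 1287 of these (symbols starting with MIR or SCARNA) were left out. Each gene was read from its probe set of highest mean, without rescaling. Differences are MEK inhibitor minus none. Members, lists, roles, the floor and thresholds were chosen with earlier results of these data known; roles of 11 members were added after the values were seen. Any member could be named, with both values for those of largest difference. Motif searches in proteins were planned and are not analysed here. Alternatives were 2 scalings, other floors, averaged probe sets, a 2-fold threshold and subsets of members. Counting was tested on simulated data. Python 3.11.15, numpy 2.4.6, pandas 2.3.3, statsmodels 0.14.6 and matplotlib 3.10.9 were used.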

Additional observations from a re-analysis of the deposited data

How the results depend on the processing

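No paired analysis was possible because there is a single array with the inhibitor and a single one without it, so none could be left out. The members' median difference kept its sign under every scaling, filter, probe set and subset setting tried, between -0.30 without DDX and DHX symbols and -0.13 for these alone. The count at least 1.5-fold lower was 6 or 7 under each floor, scaling and probe set rule and without members that match by spelling, losing BOP1 with averaged probe sets and WDR12 with the 75th percentile floor, and 0 at 2-fold. The count at least 1.5-fold higher was 0 at 2-fold, with the 75th percentile floor and where the mean of both arrays had to reach the floor, and 1 without members that match by spelling; the last 2 of these settings were chosen after seeing the data. Fewer genes pass these floors. Role medians moved for RNA polymerase III subunits (-0.012 without the filter, which adds POLR3GL), for NCL and NOL8 (-0.59 with the 75th percentile floor, NCL alone) and for pseudogenes and non-coding transcripts (-0.30 without the filter). The median of other helicases turned to 0.070 without the filter and 0.13 with the 75th percentile floor, so it has no direction. The other 76 values moved by less than 0.1 (medians) or 1.5-fold (counts).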

Other observations

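The pairs of paralogs and copies given here were picked after their values were seen, so they show no general pattern. DDX21 and DDX50, adjacent paralogs on chromosome 10, differed by -0.40 and 0.11. DDX19B and DDX19A, adjacent on chromosome 16, differed by -0.30 and 0.10, and DDX60 and DDX60L, adjacent on chromosome 4, by -0.07 and 0.34. The gaps within these 3 pairs are below the 0.56 that bounds 95% of probe set disagreements. Both RRP1 (-0.65) and RRP1B (-0.47) on chromosome 21 were lower, with 2 coding genes between them.

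Values of 2 pseudogene copies and their parent genes are given side by side. NOC2LP2 read 5.48 with the inhibitor and 6.002 without it (-0.52), whereas NOC2L had 0.81. RRP7BP read 4.74 with and 5.25 without the inhibitor (-0.51), whereas RRP7A had 0.38. NOC2L reached the floor only with the inhibitor and RRP7BP only without it, so the filter favours opposite signs. Array probes may not separate such copies, so the values of both members of each pair are uncertain. The copies of the DDX11L family, which are no helicase genes, read -0.31 (DDX11L1), -0.15 (DDX11L2), 0.68 (DDX11L9) and -0.30 (DDX11L10), all of them close to or below the floor. Over the 87 members above the floor the mean level and the difference had a Pearson's r of -0.06, a description across genes that share both arrays.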
